A study of Mus musculus with 2 samples.

Results

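The 10 genes described encode parts of cell-cell junctions and were examined in sorted mouse skin cells, namely the adherens junction genes Cdh1, Cdh3, Ctnna1 and Ctnnb1, the tight junction genes Cldn1, Cldn4, Tjp1, Ocln and F11r, and the gap junction gene Gja1. They were taken by name from the array annotation, as every non-control probe that carried 1 of these names in both scanner tables. This gave 10 genes with 16 probes on 43 spots per array, of 27729 names, 41174 probes and 43379 probe spots in all. Of the 10 genes, 8 could be measured, and Tjp1 and Ocln could not.

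Adherens junctions join neighbouring epithelial cells through cadherins, whose tails bind beta-catenin and, through alpha-catenin, the actin cytoskeleton. Tight junctions seal the space between cells with claudins, occludin and junctional adhesion molecules, anchored on scaffold proteins such as ZO-1. Gap junctions are channels of connexins that connect the cytoplasm of neighbouring cells. In epidermis the claudin-based barrier lies in the granular layer, while E-cadherin is found in all living layers and P-cadherin mainly in basal cells and follicle matrix.

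The Lgr6-high cells were dorsal skin cells with bright GFP from Lgr6-EGFP-ires-CreERT2 knock-in mice, and the Lgr5-high cells were sorted in the same way from Lgr5-EGFP-ires-CreERT2 knock-in mice. In both lines GFP and CreERT2 are driven by the promoter of the tagged gene, so the gate selects cells by promoter activity, and animals were pooled, 3 mice to a sort. The labels give neither age nor sex of the mice. Both RNAs were hybridised together on 2 two-colour Agilent arrays, with Lgr6-high RNA in Cy5 and Lgr5-high RNA in Cy3 on array 1, and the dyes exchanged on array 2. Nothing in the labels says that separate RNA pools went onto the arrays. They were therefore counted as 1 replicate, and each SD below is the spread of 2 hybridisations and not of animals.

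On array 1, 15.3% of probe spots were well above background for Lgr6-high RNA, and 33.3% on array 2, against 31.6% and 16.2% for Lgr5-high RNA, so that more spots passed in Cy3 than in Cy5 in both populations. Negative control spots had a median net signal (spot minus local background) of 22.3 and 40.2 in the Lgr6-high channels and 40.6 and 22.1 in the Lgr5-high channels. Of the sorted genes, Lgr5 had a log2 ratio of -1.83 ± 0.12, and Lgr6 could not be measured, since only Lgr6-high RNA on array 2 gave a clear signal. All 10 epithelial markers passed the filter for a measured gene, although on array 1 the Lgr6-high signal of Krt8 was dim. Called higher in Lgr6-high cells were 2 of them, Itga6 (1.58 ± 0.36) and Itgb4 (1.10 ± 0.13), against 7.28% of all measured genes. None was called higher in Lgr5-high cells. Of the 10, 7 had a positive mean ratio, while those of Krt17, Krt18 and Krt8 were negative. The median of the 10 was 0.74 on array 1 and -0.11 on array 2. Krt14 (2.237 and -0.103), Krt15 (1.95 and -0.12), Krt5 (1.82 and -0.15), Krt17 (0.287 and -2.295) and Krt8 (0.15 and -0.39) differed in sign between arrays. The brightest 1% of all measured genes (62 genes, mean log2 intensity from 13.96) had a median ratio of 0.64 on array 1 and -1.35 on array 2. Krt14, Krt15, Krt5 and Krt17 were that bright, and Krt8 (6.85) was not. The brightest junction gene, F11r, had an intensity of 11.44.

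A ratio below is the log2 ratio of Lgr6-high over Lgr5-high after normalisation, so a positive value means more signal in Lgr6-high cells. A gene was called where its mean ratio reached 1 in size (2-fold) and neither array fell short of 0.5 in that direction. It is a rule of size and no test, because 1 replicate allows no test of differences between animals. In bulk RNA, fewer cells of a type and less RNA per cell cannot be told apart.

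Of the 8 measured junction genes, 3 were called higher in Lgr6-high cells, Cldn4, Cldn1 and Cdh1, against 7.28% of the 6195 measured genes. None was called higher in Lgr5-high cells, against 4.76% of all measured genes. The median ratio of the 8 genes was 0.86, beside -0.05 over all measured genes, and 5 were above 0 and 3 below. A gene entered only if 1 population was well above background on both arrays, so these figures describe the measured genes and not the 10. The 10 genes were chosen with earlier results of these data known, so the shares are a description and test nothing. Under the processing reported, the sign was the same on both arrays for 8 of the 8, beside 72.5% of all measured genes. The median SD was 0.14 beside 0.23.

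**Figure D1:**
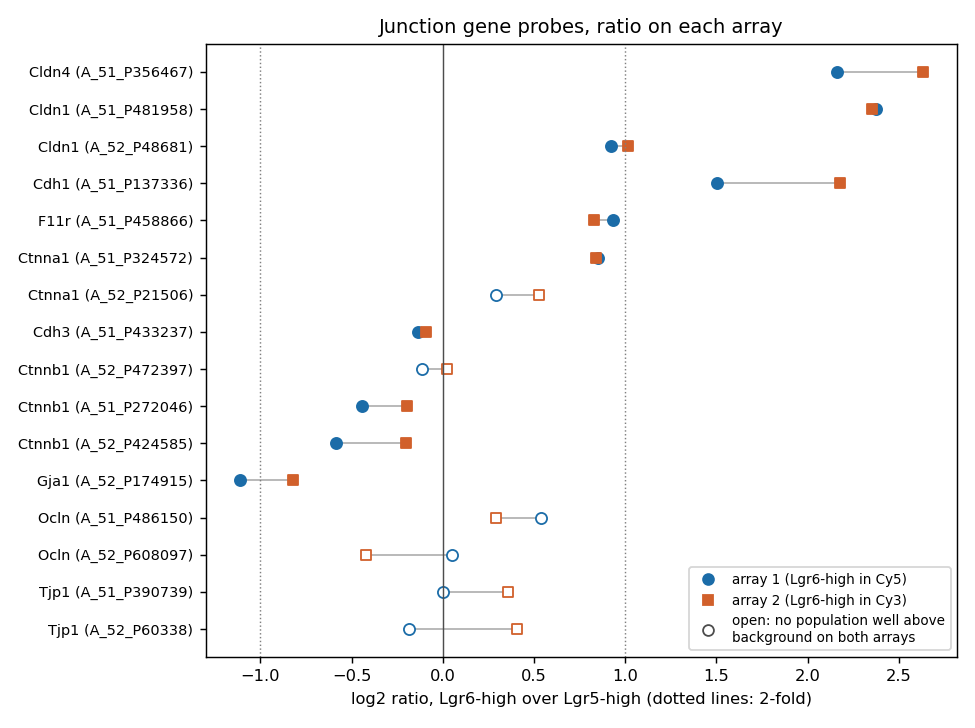
Log2 ratio of Lgr6-high over Lgr5-high for each of the 16 probes of the 10 junction genes, on array 1 (circles) and array 2 (squares); open symbols mark probes with no population well above background on both arrays, and dotted lines mark 2-fold. Cldn4, Cldn1 and Cdh1 have probes beyond 2-fold on both arrays, and Gja1 lies at the other end, at -1.11 and -0.82.

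The promoters of Cldn4 and Cldn1, which were both called, and of Gja1, which lay at the other end, are shown so that the 3 can be set side by side. Each is the 250 bases before the transcription start from RefSeq, build GRCm38.p6, and capitals mark AP-1 motifs (TGANTCA) and E-boxes (CAGGTG), read on either strand. The table held promoters of 7 of the 10 genes, in 9 windows.
Cldn4, chr5:134946935-134947184, minus strand: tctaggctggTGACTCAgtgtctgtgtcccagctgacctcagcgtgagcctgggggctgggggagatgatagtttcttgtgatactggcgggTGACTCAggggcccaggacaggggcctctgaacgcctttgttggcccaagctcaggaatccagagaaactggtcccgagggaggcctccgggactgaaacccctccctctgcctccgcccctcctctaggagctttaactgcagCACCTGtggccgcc
Cldn1, chr16:26371840-26372089, minus strand: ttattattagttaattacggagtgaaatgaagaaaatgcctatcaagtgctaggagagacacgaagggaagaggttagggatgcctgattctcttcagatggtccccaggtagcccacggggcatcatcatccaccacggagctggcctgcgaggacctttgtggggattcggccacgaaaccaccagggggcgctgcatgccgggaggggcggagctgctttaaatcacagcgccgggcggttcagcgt
Gja1, chr10:56377050-56377299, plus strand: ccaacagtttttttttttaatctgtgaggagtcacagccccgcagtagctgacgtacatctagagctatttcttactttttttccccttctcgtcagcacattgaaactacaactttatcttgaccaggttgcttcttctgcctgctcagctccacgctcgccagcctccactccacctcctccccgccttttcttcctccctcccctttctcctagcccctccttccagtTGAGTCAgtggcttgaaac
The Cldn4 window held AP-1 motifs 240 and 158 bases before the start and 1 E-box at 14 bases. The Cldn1 window held neither motif, and the Gja1 window held 1 AP-1 motif at 19 bases. F11r had 1 AP-1 motif at 109 bases and 1 E-box at 122 bases, and 1 of the 2 Ocln windows had E-boxes at 213 and 68 bases. Ctnnb1 and Tjp1 had neither. Searched on both strands, AP-1 motifs were found in 6.75% of 32851 mouse promoter windows of this length and E-boxes in 17.2%. A GC box (GGGCGG), found in 32.7%, was present in every matched gene except Gja1. A match is a description of the letters and not of binding.

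Among the adherens junction genes, Cdh1, which encodes E-cadherin, had more signal in Lgr6-high cells. Its probe lies at chr8:109193812-109193871 on the plus strand of build mm9. Its net signal was 337 on array 1 and 4699 on array 2 in Lgr6-high cells, against 565 and 145 in Lgr5-high cells. Read dye by dye, Lgr6-high was higher than Lgr5-high both in Cy3 (4699 against 565) and in Cy5 (337 against 145). Each such pair spans the 2 arrays, whose net signals were not scaled to each other. Its normalised log2 level was 9.91 and 10.68 in Lgr6-high cells, against 8.40 and 8.50 in Lgr5-high cells. The normalised ratio was 1.502 on array 1 and 2.18 on array 2, a mean of 1.84 ± 0.48 or 3.58-fold, which ranked 133 of 6195 from the Lgr6-high side. The SD of 0.48 was the highest of the 8 genes. Cdh1 was spotted 10 times per array, and the spots without an outlier mark ranged between 1.32 and 1.67 on array 1 (8 spots) and between 2.02 and 2.38 on array 2 (9 spots). The 2 arrays did not overlap at the level of spots, so the gap between arrays was larger than the spot SD of 0.11 and 0.13.

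Cdh3, which encodes P-cadherin, stood near 0. Its net signal was 39.5 and 165 in Lgr6-high cells, against 155 and 45.6 in Lgr5-high cells, and on array 1 the Lgr6-high signal was not well above background. The ratio was -0.14 and -0.09, a mean of -0.11 ± 0.03, and the normalised levels of the populations overlapped. The difference between Cdh1 and Cdh3 was 1.64 on array 1 and 2.27 on array 2. The genes are neighbours on chromosome 8 with no protein-coding gene between them in the RefSeq table.

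**Figure D2:**
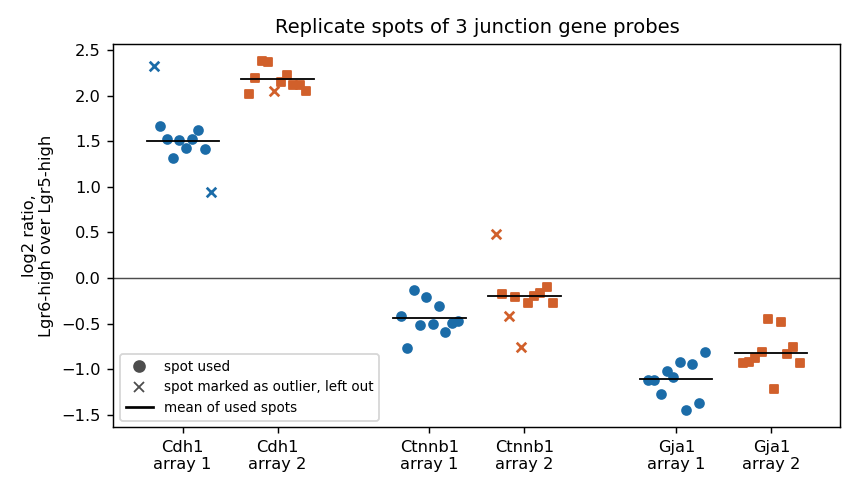
Log2 ratio of Lgr6-high over Lgr5-high at each of the 10 replicate spots per array of Cdh1, Ctnnb1 and Gja1; crosses are spots marked as outliers and left out, and lines are means of the used spots. All used spots of Cdh1 lie above 1.3 and all spots of Gja1 below -0.4 on both arrays.

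The catenins went different ways in sign. Ctnna1, alpha-catenin, which links the cadherin complex to actin, had a net signal of 872 and 9727 in Lgr6-high cells, against 2951 and 757 in Lgr5-high cells. Its ratio was 0.85 and 0.84, a mean of 0.84 ± 0.01 or 1.80-fold, which stayed under the 2-fold line. A second Ctnna1 probe, designed on another transcript, was too dim to be measured, at 0.29 and 0.52. Ctnnb1, beta-catenin, which binds cadherin tails and also acts in Wnt signalling, had a net signal of 76.6 and 784 in Lgr6-high cells, against 606 and 168 in Lgr5-high cells. Its ratio was -0.58 and -0.20, a mean of -0.39 ± 0.27. Dye by dye, and so across the 2 arrays, the Ctnnb1 signals pointed in opposite directions before normalisation. Lgr6-high was above Lgr5-high in Cy3 (784 against 606) and below it in Cy5 (76.6 against 168). A Ctnnb1 probe with 10 spots gave -0.44 and -0.20, and another, too dim to be measured, gave -0.11 and 0.02. The difference between Ctnna1 and Ctnnb1 was 1.43 and 1.04 on the 2 arrays.

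Among the tight junction genes the 2 claudins had the highest ratios of the 8 measured genes. Cldn1, a claudin that the epidermal barrier needs, had a net signal of 244 and 2334 in Lgr6-high cells at chr16:26359010-26359069 (mm9, minus strand), against 158 and 57.2 in Lgr5-high cells. Its ratio was 2.37 and 2.35, a mean of 2.36 ± 0.01 or 5.14-fold, rank 72. The normalised log2 level was 9.26 and 9.83 in Lgr6-high cells, against 6.89 and 7.48 in Lgr5-high cells. A second, dimmer Cldn1 probe at chr16:26357372-26357431 gave 0.92 and 1.01, a mean of 0.97 ± 0.06, which was not called. Its net signal was 68.4 and 557 in Lgr6-high cells, against 80.7 and 42.2 in Lgr5-high cells, where it was above background on array 1 only. Both Cldn1 probes thus pointed the same way and differed in size.

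Cldn4, a claudin of barrier-forming epithelia, was at background in Lgr5-high cells on both arrays. Its net signal was 133 and 1759 in Lgr6-high cells at chr5:135421347-135421406 (mm9, minus strand), against 52.9 and 26.5 in Lgr5-high cells. Its normalised log2 level was 8.12 and 9.52 in Lgr6-high cells, against 5.96 and 6.88 in Lgr5-high cells. The fitted ratio was 2.16 and 2.63, a mean of 2.40 or 5.27-fold. Since the Lgr5-high side was at background, this is an "at least" fold, and it holds for this processing only. With the background model fitted on all spots the mean ratio was 1.36, and without background subtraction 1.52. F11r, the junctional adhesion molecule JAM-A, had a net signal of 1082 and 13827 in Lgr6-high cells, against 3544 and 1039 in Lgr5-high cells. The ratio of F11r was 0.93 and 0.83, a mean of 0.88 ± 0.07 or 1.84-fold, under the 2-fold line.

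**Figure D3:**
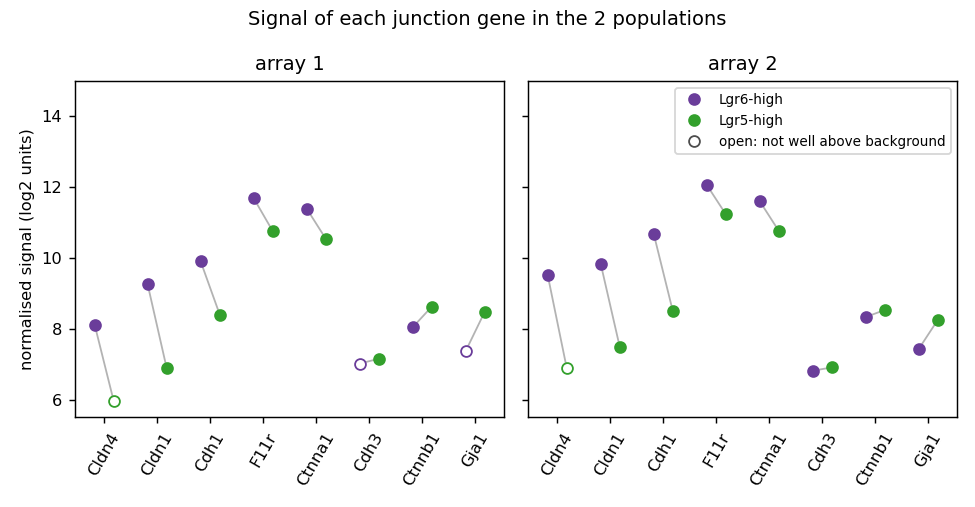
Normalised log2 signal of the 8 measured junction genes in Lgr6-high (left point of each pair) and Lgr5-high cells (right point) on each array; open points were not well above background. Cldn4 is open in Lgr5-high cells on both arrays, while Gja1 and Cdh3 are open in Lgr6-high cells on array 1.

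The other tight junction genes gave no ratio that could be read. Ocln, occludin, had 2 probes, and Tjp1, which encodes the scaffold ZO-1, had 2. The brighter Ocln probe had a net signal of 47.6 and 237 in Lgr6-high cells, against 64.0 and 40.4 in Lgr5-high cells. The brighter Tjp1 probe had 21.7 and 135 in Lgr6-high cells, against 41.3 and 26.1 in Lgr5-high cells. For both, array 2 alone had a signal well above background, and only from Lgr6-high cells. The other probe of each gene was dim in both populations on both arrays. Neither gene was detectable well enough to be compared, which does not show that it was absent.

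The gap junction gene Gja1, which encodes connexin 43, was the only gene of the 8 with a mean ratio below -0.5, and it was not called. Its probe (chr10:56109814-56109873, mm9, plus strand) had a net signal of 40.9 and 370 in Lgr6-high cells, against 521 and 146 in Lgr5-high cells. Before normalisation Lgr6-high was lower than Lgr5-high in both dyes, read across arrays that were not scaled to each other. The normalised log2 levels were 7.38 and 7.44 in Lgr6-high cells, against 8.49 and 8.26 in Lgr5-high cells. The ratio was -1.11 and -0.82, a mean of -0.97 ± 0.20, which lay at percentile 5.34 of all measured genes. Over 10 spots per array it ranged between -1.45 and -0.81 on array 1 and between -1.21 and -0.46 on array 2. On array 1 only 4 of the 10 spots were well above background in Lgr6-high cells. The difference between Cdh1 and Gja1 was 2.61 and 3.00.

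Fibroblast transcripts had ratios of the same sign as Gja1. Of 7 fibroblast markers 5 were measured, 4 of them called higher in Lgr5-high cells (Col1a1, Col1a2, Col3a1 and Dcn) with a list median of -2.58. Their summed net signal was 155 and 466 in Lgr6-high cells, against 4612 and 998 in Lgr5-high cells. Of 5 mural cell markers 3 were measured and 2 called higher in Lgr5-high cells (Myl9 and Tagln), while Acta2 was on the other side and not called (0.90 ± 0.42), with summed signals of 418 and 3122 in Lgr6-high cells, against 7158 and 1921 in Lgr5-high cells. Of 7 endothelial markers, Egfl7 and Ramp2 were called higher in Lgr5-high cells, while the defining genes Pecam1, Cdh5 and Cldn5 were at background in both populations. The melanocyte gene Dct was also called higher in Lgr5-high cells, and of 5 Schwann cell markers Pmp22 and Mbp were called higher in Lgr6-high cells, with Sox10 at background in both populations. No leukocyte marker could be measured. The part of other cell types in the ratio of Gja1 or of any other junction gene was not tested.

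Other junction genes were examined as 4 lists, with 39 of 100 genes on the array measured. Of these, 32 had a positive ratio, beside 46.4% of all measured genes, and the median was 0.40, beside -0.05. Over all measured genes, 7.28% were called higher in Lgr6-high cells and 4.76% in Lgr5-high cells. These lists, too, were chosen with earlier results of these data known, so their shares test nothing. Of 13 measured genes on the adherens junction list, 2 that were called higher in Lgr6-high cells were Cdh13 and Nectin2. Cdh13 encodes T-cadherin (2.72 ± 0.20), and Nectin2 is an adhesion molecule of the nectin family (2.26 ± 0.29). The brightest that were not called were the actin crosslinker Actn4 (0.27 ± 0.33), the actin-binding Lima1 (0.96 ± 0.19) and Nectin1 (0.76 ± 0.20). Among 9 measured tight junction genes, the brightest not called were Lsr, a protein of tricellular junctions (0.34 ± 0.10), Sympk (-0.51 ± 0.54) and the adhesion receptor Cxadr (0.61 ± 0.20).

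Of 5 measured genes on the gap junction list, Gjb2, which encodes connexin 26, was the single gene called higher in Lgr5-high cells. Its ratio was -1.87 and -2.21 (-2.04 ± 0.24). The channel gene Panx1 (0.71 ± 0.03) and the connexin gene Gjb5 (0.30 ± 0.15) were not called. None of 12 measured polarity and scaffold genes was called in either direction. The brightest were Ptprf, a receptor phosphatase, at 0.02 on array 1 and -0.96 on array 2, the polarity protein Scrib (0.15 ± 0.22) and Pard6g (0.45 ± 0.34).

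Of 13 transcription factors on the array that were listed as regulators of junction genes, 6 were measured. Among these, 3 were called higher in Lgr6-high cells, against 7.28% of all measured genes. They were Ovol1 (3.49 ± 0.50), a zinc finger factor of epithelial differentiation, Klf4 (1.67 ± 0.25), a factor needed for the epidermal barrier, and Grhl1 (1.07 ± 0.20), a grainyhead-like factor. Trp63 (0.43 ± 0.35), Snai2 (0.36 ± 0.37) and Grhl2 (0.05 ± 0.49) were not called. This list was also chosen with earlier results of these data known, so its share is a description and tests nothing.

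**Figure D4:**
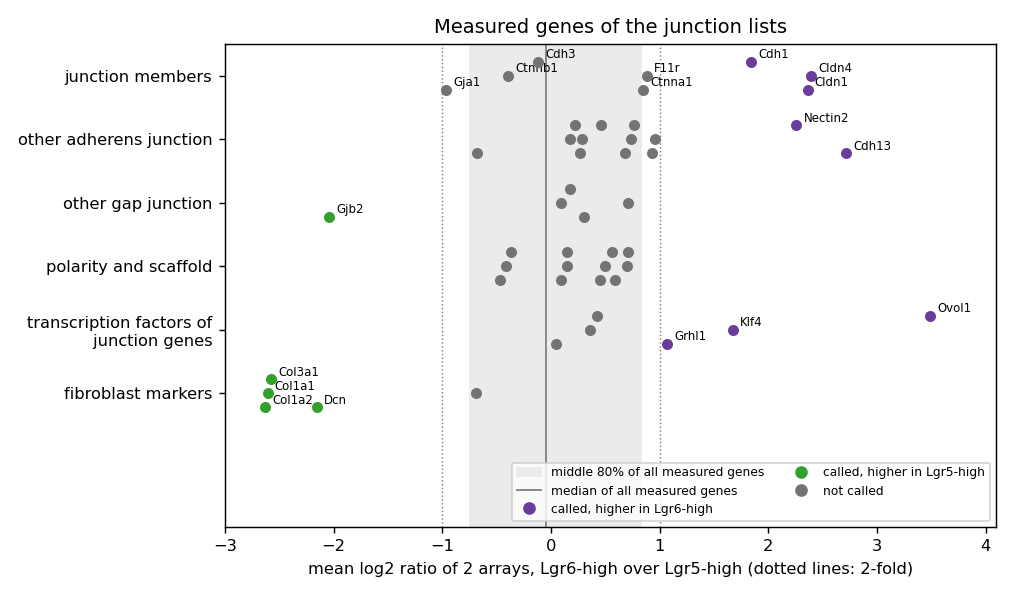
Mean log2 ratio of Lgr6-high over Lgr5-high for the measured genes of the 10 junction genes, of the other adherens junction, gap junction and polarity lists, of the transcription factors and of the fibroblast markers; purple points were called higher in Lgr6-high cells, green points higher in Lgr5-high cells and grey points were not called. The shaded band holds the middle 80% of all measured genes, and Gjb2 is the only green point among the junction lists shown.

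The size of the ratios depended on how background and dyes were corrected. With the scanner's own ratio, Cldn4 was 5.19, Cldn1 3.22 and Cdh1 2.31, F11r (1.20) and Ctnna1 (1.10) passed the rule, and Gja1 passed it on the Lgr5-high side at -1.95. Without dye normalisation Cdh1 was -0.65 on array 1 and 4.64 on array 2 and was no longer called. No mean ratio of the 8 genes changed sign under any of the settings tried, but ratios on single arrays did. Without dye normalisation Gja1 was -2.77 on array 1 and 1.10 on array 2, Ctnna1 -1.71 and 3.61, and F11r -1.67 and 3.68. Ctnnb1 (-2.45 and 1.96) and Cdh3 (-1.20 and 1.16) also differed in sign between arrays there. Cldn1 (0.63 and 4.58) and Cldn4 (1.14 and 4.71) stayed above 0 on both. With the background model fitted on all spots, F11r was 0.93 and -0.14.

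**Figure D5:**
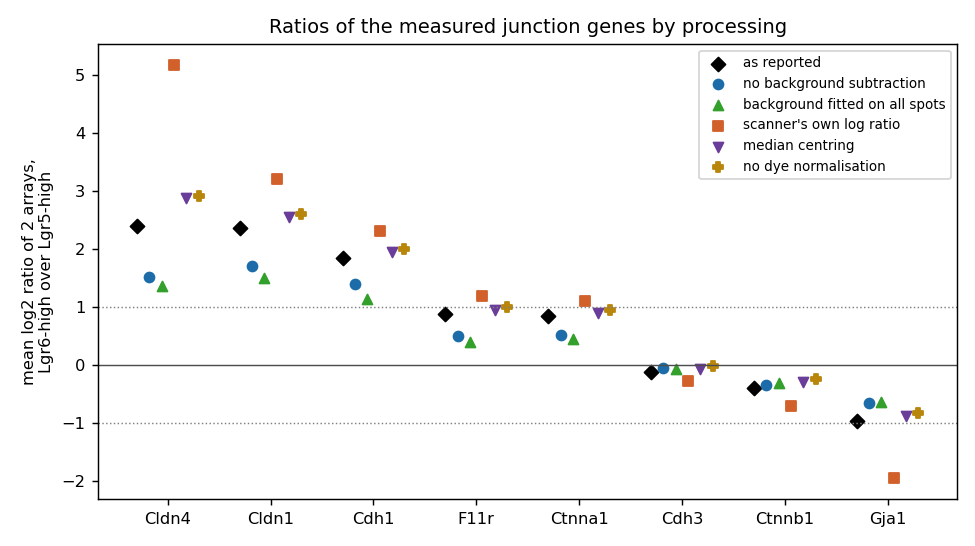
Mean log2 ratio of Lgr6-high over Lgr5-high of the 8 measured junction genes under 6 ways of correcting background and dyes; dotted lines mark 2-fold. Cldn4 and Cldn1 lie above 2-fold under all 6 and no gene crosses 0, while Cldn4 spans 1.36 to 5.19.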

How the data were processed

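RNA of Lgr6-high and Lgr5-high cells was compared on 2 two-colour arrays with exchanged dyes. The authors deposited scanner tables with the intensity of each spot and its local background on a linear scale, extracted with Agilent Feature Extraction 10.5.1.1 per the file headers and 9.5.3 per the submitters' processing notes. The deposited tables also hold the software's log10 ratio of Cy5 over Cy3, exactly 0 at 48.6% and 48.4% of probe spots, and its p-value per spot, which was not used. The authors' value table holds the same log10 ratios as Lgr6-high over Lgr5-high, within 5e-06. Probe positions are on mm9 per the file headers, and no annotation of that build was used, so exons and UTRs are not given.

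Here, background was corrected with normexp (offset 50, fitted on spots without an outlier mark) and dyes by loess within arrays, control spots at weight 0, in limma 3.58.1 (R 4.3.3). Fitting on unmarked spots departs from the default, which is among the alternatives, and was chosen with its effect known. Marked spots (139 and 204) were left out and replicate spots averaged. A probe was measured if 1 population was well above background, at no fewer than 50% of its spots, on both arrays. The brightest such probe stood for the gene. Levels per population were scaled with Aquantile, and an "at least" fold is the bright level over the dim one, or over the lowest level well above background where that is higher. Ratios were compared within arrays and averaged over both, with no test behind the calls reported. Alternatives changed the background and dye correction, the filters, the choice of probe, the fold and the arrays used. A further alternative put limma in place of the rule of size. The number of arrays limits the precision. All probes of the 10 genes are named. From the other junction lists, every called gene and up to 3 of the brightest measured genes that were not called are named, except for some that are not reported here. The members and lists were chosen with earlier results of these data known. The code was tested on simulated data.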

Additional observations from a re-analysis of the deposited data

How the results depend on the processing

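Among the measured junction genes, the count called higher in Lgr6-high cells was 3 as reported and 5 with the scanner's own ratio, the authors' value table or a 1.5-fold minimum. It was 2 with median centring, without dye normalisation, or with both populations required above background, where 5 genes were measured and Cldn4 was not among them. With normexp fitted on all spots it stayed at 3, but on array 2 the 3 genes came close to the minimum of 0.5. There Cdh1 was 0.77, Cldn1 0.63 and Cldn4 0.57, beside 2.18, 2.35 and 2.63 as reported. The count called higher in Lgr5-high cells was 0 as reported and 1, Gja1, with the scanner's ratio, the value table or the 1.5-fold minimum, and between 0 and 1 when an array was left out (1, Gja1, without array 2 and 0 without array 1). The median ratio of 0.86 became 0.51 without background subtraction, 0.42 with normexp fitted on all spots, 1.15 with the scanner's ratio or the value table, 0.93 with median centring, 0.98 without dye normalisation and 0.63 with no filter on dim probes. Leaving out either array gave 0.83 to 0.89. The causes were not tested. Limma, with a Benjamini-Hochberg adjusted p under 0.05 and the same 2-fold minimum, called 3 and 0 junction genes, and 458 and 302 of all genes. F11r, Ctnna1 and Gja1 passed its p alone. That p sets the mean ratio against the spread of the 2 hybridisations, partly pooled over all measured genes, and not against that of animals. The median of all genes was -0.05 as reported and 0.08 without dye normalisation. All genes called numbered 451 and 295 as reported, 958 and 958 with the scanner's ratio, 212 and 204 without background subtraction, 124 and 151 with normexp on all spots, 134 and 57 with median centring, 93 and 32 without dye normalisation, 755 and 709 at 1.5-fold, and 611 and 471 without array 1. Each ratio already pairs the populations within an array, so no further replicate block could be added. Scan date could not be fitted as a block, since both arrays were scanned together. Signals near background limit Cldn4 (Lgr5-high cells, both dyes), Cdh3 and Gja1 (Lgr6-high cells, Cy5), and Ocln and Tjp1 (both populations).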
